A study of Felis catus with 38 samples.

Results

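Across 38 oral tumour biopsies from pet cats, 4 genes with very high read counts were described in each library: ENSFCAG00000004564 (gene A here), ENSFCAG00000014740 (gene B), ENSFCAG00000030892 (gene C) and ENSFCAG00000006015 (gene D). They are 4 of 26681 gene rows in the count table, and by total reads they stand at rank 1, 2, 3 and 9. The 4 were listed because they were very abundant and higher at Day 8, so these 2 properties are description and carry no test below. The deposited table pairs no ID with a symbol, and 0 IDs could be matched to one in the reference table used here. Their identity, function, length and sequence are therefore not given.

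Each tumour was biopsied at Day 1, before treatment, and at Day 8, with 19 libraries per day. At Day 8 the label names CS3D, a STAT3-targeted cyclic oligonucleotide, and this biopsy preceded the dose of that day. All groups share the label tumour, with the oral cavity as tissue. The labels used here give no breed, age, sex or tumour histology, and no untreated cats at Day 8 were used. Day, repeated biopsy and treatment therefore cannot be told apart. Library numbers run from 1 to 20 without 6, and both libraries of a number were treated as biopsies of one cat.

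STAT3 is a transcription factor that many cytokine and growth factor receptors activate by phosphorylation. It moves to the nucleus as a dimer and raises the transcription of genes for survival, proliferation and wound responses, and many squamous tumours hold it in its active form. A biopsy of an oral tumour mixes tumour cells with stroma, vessels, immune cells and often surface mucosa or muscle. In such bulk RNA, a changed number of cells of one type and a changed amount of RNA per cell cannot be told apart. In most tissues a handful of genes, often for structural or secreted proteins, take a large share of all reads. A rise of such genes also lowers the share left for all others.

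Library totals were 10603088 to 22564720 counts at Day 1 and 11377129 to 20496503 at Day 8. The least read of the 4 genes in any library had 8797 counts, so counting error was small beside the spread between cats. All Day 1 libraries and 11 Day 8 libraries (cats 1 to 12) carry batch label 1, and 8 Day 8 libraries (cats 13 to 20) carry label 2. The table lists the columns of cats 1 to 13 first and those of cats 14 to 20 last. The Day 8 library of cat 7 correlated slightly better, over all tested genes, with the Day 1 library of cat 17 (r = 0.388) than with its own (r = 0.365), and values without cat 7 are given below. The tissue could not be checked against marker genes, since the IDs have no symbols.

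Together the 4 genes took between 0.285% and 15.2% of a library's reads at Day 1, with a median of 2.03%. At Day 8 they took between 0.313% and 21.9%, with a median of 6.41%. Cats 1 and 2 had the lowest shares and cats 15 and 18 the highest at both days, and the ranges of the days overlapped. The mean share was 3.52 ± 3.71% at Day 1 and 8.05 ± 6.34% at Day 8 (SD, n = 19). The paired difference was 4.52 ± 4.05 percentage points, positive in 16 cats and negative in 3.

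**Figure D1:**
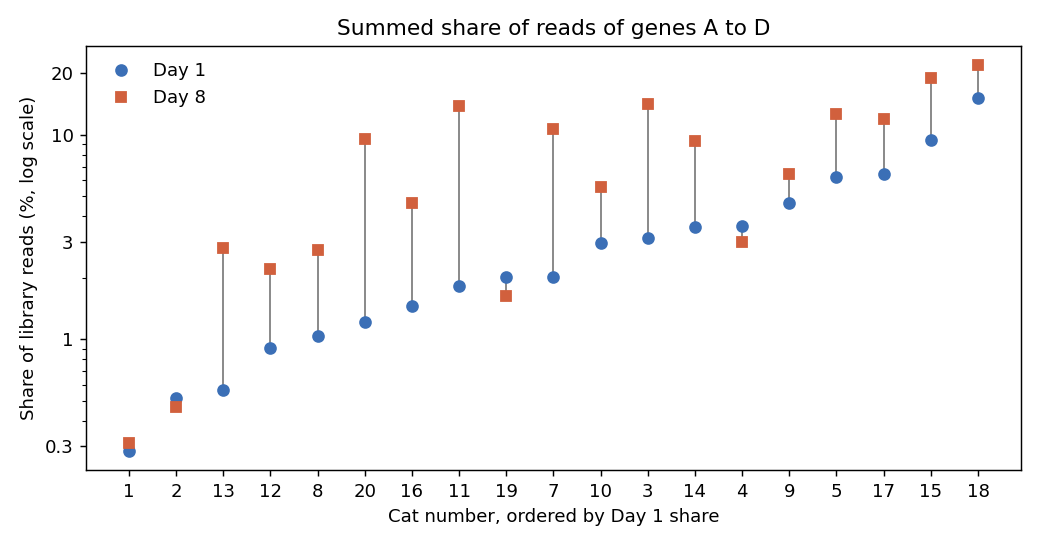
Share of library reads (percent, log scale) taken by genes A to D together, for each of 19 cats ordered by the Day 1 share, with Day 1 as circles, Day 8 as squares and a line joining the biopsies of a cat. Squares lie above circles in 16 cats, and the 3 exceptions are cats 2, 4 and 19.

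Gene A, the gene with the most reads in the table, ranged from 0.116% of reads in cat 1 to 6.69% in cat 18 at Day 1, with a median of 1.04%. At Day 8 it ranged from 0.125% in cat 1 to 10.1% in cat 18, with a median of 2.67%. Its place among all genes of a library was first in 8 libraries at Day 1 and in 11 at Day 8. In cat 1, the lowest at both days, it stood at rank 55 and rank 54.

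Gene B ranged from 0.0449% in cat 1 to 3.97% in cat 18 at Day 1 (median 0.499%), and from 0.0497% to 4.97% in the same cats at Day 8 (median 1.60%). It spanned the widest range of the 4, an 88.4-fold difference between the lowest and the highest library at Day 1 and 100.1-fold at Day 8. Gene C ranged from 0.0622% to 3.40% at Day 1 (median 0.444%) and from 0.0699% to 5.22% at Day 8 (median 1.36%). The extremes were again cats 1 and 18.

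Gene D, the least abundant of the 4, had the narrowest range. It took 0.0623% to 1.17% of reads at Day 1 (median 0.345%) and 0.0684% to 1.64% at Day 8 (median 0.857%), an 18.9-fold and a 23.9-fold span. At both days cat 1 was lowest and cat 18 highest for every 1 of the 4 genes. All these levels are shares of reads. They are not per transcript length, so their order between genes says nothing about numbers of transcripts.

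**Figure D2:**
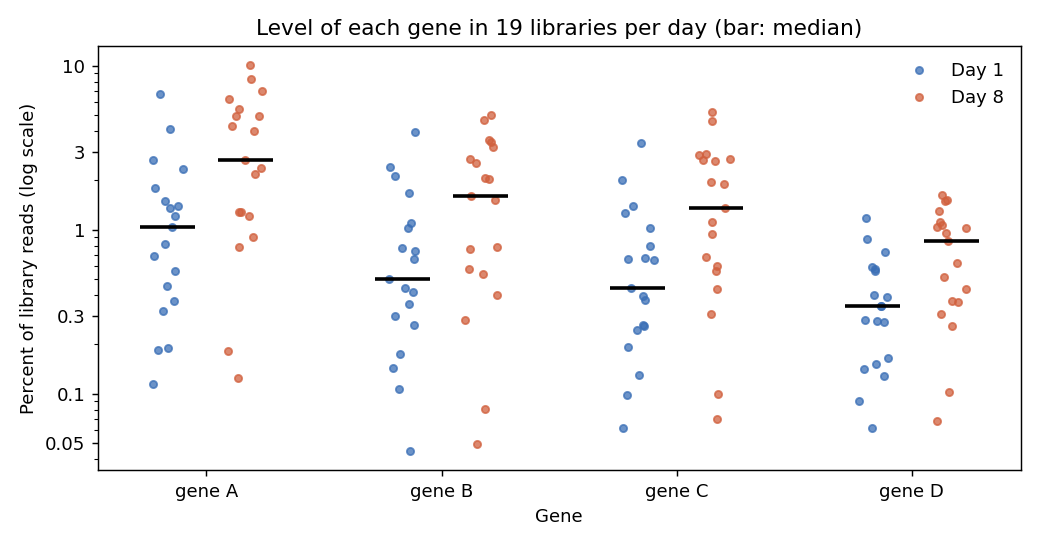
Percent of library reads (log scale) of genes A, B, C and D in 19 libraries at Day 1 and 19 at Day 8, 1 point per library, with the median as a bar. The days overlap for every gene, while the medians go from 1.04% to 2.67% for gene A and from 0.345% to 0.857% for gene D.

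The spread between cats was larger than for most abundant genes. The SD of log2 CPM (counts divided by library size and scaled by TMM, edgeR's correction for composition) between cats at Day 1 was 1.57 for gene A, 1.65 for gene B, 1.51 for gene C and 1.14 for gene D. Over the 100 most abundant genes its median was 0.68, and over all 14996 tested genes 0.54. At Day 8 the SDs were 1.80, 1.94, 1.79 and 1.34, against medians of 0.74 and 0.57.

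Between days, all 4 genes were higher at Day 8 in most cats, which is what they were chosen for. In edgeR's model blocked by cat, gene A had a log2 change of 1.42 ± 0.27 (SE), gene B of 1.16 ± 0.24, gene C of 1.30 ± 0.25 and gene D of 1.04 ± 0.20. In that model 7.05% of the tested genes passed the threshold of 0.05 for the adjusted p, and 5.11% passed as higher at Day 8. With batch as a further term 0 genes passed in edgeR, with 2686 at an unadjusted p under 0.05, and the log2 changes of genes A to D were 1.28 ± 0.36, 1.11 ± 0.32, 1.16 ± 0.33 and 1.03 ± 0.26. Just outside the 4, the next most abundant gene to pass as higher was that at rank 15, with a log2 change of 1.18 ± 0.23 and a mean share of 0.200 ± 0.184% at Day 1 and 0.409 ± 0.272% at Day 8 (SD, n = 19).

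The change differed widely between tumours. For gene A the paired log2 differences ran from -0.34 in cat 19 to 3.64 in cat 20, with a median of 1.20. For gene B they ran from -0.92 in cat 2 to 2.83 in cat 11 (median 1.16). For gene C the range was -0.52 in cat 4 to 3.10 in cat 11 (median 1.21). For gene D it was -0.14 in cat 4 to 2.93 in cat 20 (median 0.91). Genes A, B and C were higher at Day 8 in 16 of 19 cats and gene D in 17, beside a background of 4.05% of tested genes that were higher in at least 16.

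The 4 genes took the same direction within nearly every tumour. Each was chosen as higher at Day 8, so a shared upward direction follows largely from that choice and is description only. All 4 were higher in 16 cats, all 4 were lower in cats 4 and 19, and in cat 2 gene D alone was higher, by 0.10, on the TMM-scaled log2 CPM used here. As a share of reads, gene C was also higher in cat 2, at 0.0987% at Day 1 and 0.1002% at Day 8, and in 17 of 19 cats in all. The differences between the 4 genes within a cat were small beside those between cats. The range of the 4 log2 changes within a cat had a median of 0.42, while the mean change of the 4 had an SD of 1.03 between cats. The widest range was 1.23 in cat 16, where gene A changed by 2.10, gene C by 1.87, gene B by 1.16 and gene D by 0.88.

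In 5 cats the mean log2 change of the 4 genes was above 2, namely cats 20 (3.09), 11 (2.97), 7 (2.42), 3 (2.37) and 13 (2.22). In cat 20 the summed share went from 1.22% to 9.59%, a 7.85-fold difference, and in cat 11 from 1.83% to 13.8%, which is 7.54-fold. Cats 15 and 18, which had the highest shares at Day 1, went from 9.42% to 19.0% and from 15.2% to 21.9%. Cats 1 and 2 stayed low at both days, with 0.285% and 0.313% in cat 1 and 0.519% and 0.465% in cat 2.

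**Figure D3:**
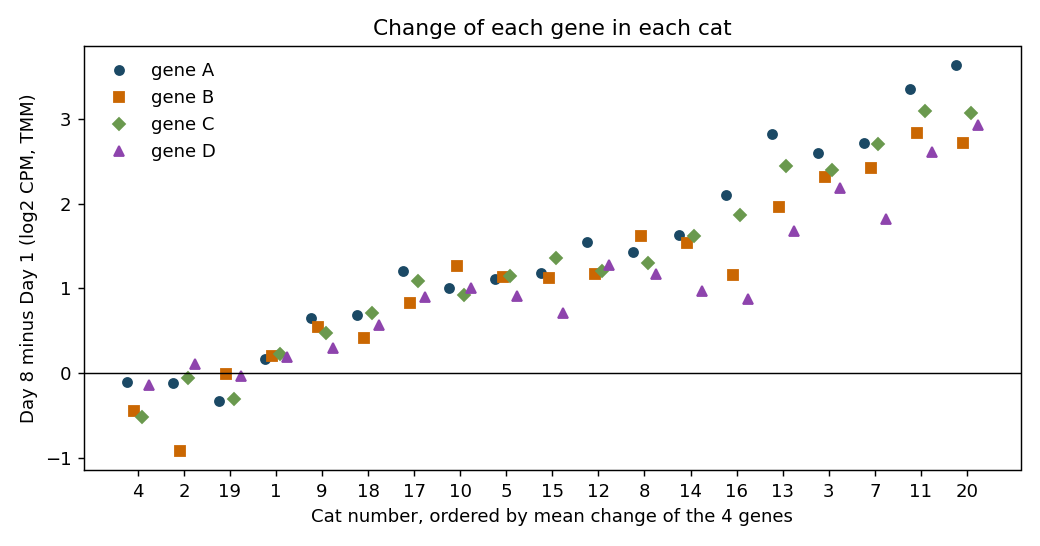
Day 8 minus Day 1 difference in log2 CPM of genes A to D (4 symbols) in each of 19 cats, ordered by the mean of the 4. The symbols of a cat lie close together, with a median range of 0.42, while the cat means run from -0.30 in cat 4 to 3.09 in cat 20.

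The change was also compared between the cats whose batch label stayed the same and those whose label changed. In cats 1 to 12 the mean paired log2 change of gene A was 1.30 ± 1.17 (SD, 11 cats), and in cats 13 to 20 it was 1.62 ± 1.24 (SD, 8 cats). The difference of 0.31 had an exact two-sided permutation p of 0.582 (adjusted over the 4 genes, 0.934). For genes B, C and D the differences were 0.11, 0.31 and 0.03, with exact permutation p of 0.821, 0.553 and 0.934. Such p-values leave room for differences that 11 and 8 cats cannot resolve. The genes were also chosen on their change over all cats, which favours like changes in both sets. These tests therefore cannot decide whether batch had a part. The summed share was higher by 4.09 ± 4.63 percentage points in the first set, in 9 of 11 cats, and by 5.12 ± 3.28 points in the second, in 7 of 8. Without cat 7 the mean log2 changes of genes A to D were 1.36, 1.08, 1.22 and 1.01 (18 cats).

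At Day 1, where all libraries carry one batch label, the levels in cats 13 to 20 were higher than in cats 1 to 12 by a log2 difference of 0.73, 0.79, 0.70 and 0.61 for genes A to D. None of these 4 differences passed the exact permutation test (p from 0.257 to 0.331, adjusted p = 0.331 for each). By the place of the columns, cats 14 to 20 stood above cats 1 to 13 by 1.23, 1.31, 1.11 and 0.86 at Day 1 (exact permutation p from 0.0949 to 0.124, adjusted p = 0.124 for each), and their changes differed by 0.01, -0.07, 0.07 and -0.10 (exact permutation p from 0.808 to 0.983). This split by columns was chosen after seeing the data. The genes were chosen on these changes, so the small differences in change cannot show that the sets are alike.

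Levels were also set against sequencing depth. At Day 1 the correlation of log2 CPM with log2 library total over 19 cats lay between r = -0.36 for gene B and r = -0.30 for gene D, with permutation p from 0.132 to 0.216 (adjusted over 8 relations, 0.432) and Spearman's rho from -0.32 to -0.21 (permutation p from 0.186 to 0.391). Without cats 19 and 20, the farthest in depth, r was -0.51 to -0.46. Within cats 1 to 13 r was -0.10 to -0.03, and within cats 14 to 20 it was 0.27 to 0.59, so the negative sign did not hold within both sets. At Day 8 r was -0.03 to 0.03 (permutation p from 0.899 to 0.947) and rho was -0.03 to 0.10 (permutation p from 0.694 to 0.991). Without cats 11 and 16 r at Day 8 was -0.15 to -0.12. Within cats 1 to 13 it was 0.35 to 0.37, and within cats 14 to 20 it was 0.24 to 0.28.

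A tumour that was high at Day 1 tended to be high at Day 8. Over 19 cats the log2 CPM of gene A at Day 1 and Day 8 correlated with Pearson's r = 0.764 (permutation p = 0.00013) and Spearman's rho = 0.747 (permutation p = 0.00041). For genes B, C and D r was 0.844, 0.794 and 0.769, and rho was 0.844, 0.747 and 0.739. The adjusted permutation p over the 4 genes was at most 0.00013 for r and 0.0005 for rho. Without cats 1 and 18, the lowest and the highest at Day 1, r was 0.642, 0.760, 0.683 and 0.644.

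Within cats 1 to 12, r between days was 0.824, 0.832, 0.809 and 0.822 (permutation p from 0.00154 to 0.0029, 11 cats). Within cats 13 to 20 it was 0.724, 0.881, 0.792 and 0.679, with exact permutation p of 0.0439, 0.00677, 0.0215 and 0.0660 (8 cats). The relation of gene D did not reach 0.05 in that set. After removing the mean of each day, 75.7%, 83.3%, 78.2% and 75.9% of the variance of the 4 genes lay between cats. The pairing of the numbers was itself judged from such resemblance over all genes, so these values describe it and add no evidence for it.

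Across tumours the 4 genes varied together at each day. At Day 1, Pearson's r over 19 cats was highest between genes A and C, at 0.991 (rho = 0.984), and lowest between genes B and D, at 0.936 (rho = 0.940). The other pairs were A and B (r = 0.958), A and D (0.973), B and C (0.976) and C and D (0.970). At Day 8 r was 0.996 for genes A and C (rho = 0.996) and 0.975 for genes B and D (rho = 0.926), with the other 4 pairs from 0.983 to 0.991. All 12 relations, both by r and by rho, had a permutation p and an adjusted p of 1e-05, the smallest that 100000 draws can give.

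These correlations did not rest on the extreme tumours. Without cats 1 and 18, r at Day 1 was 0.890 to 0.986, and without cats 1 and 2, r at Day 8 was 0.943 to 0.993. Over both days r was 0.949 to 0.998 within cats 1 to 12 and 0.916 to 0.994 within cats 13 to 20, where the largest adjusted exact permutation p was 0.00255. Values of a library share its scaling. With library totals in place of TMM, r was 0.935 to 0.995. Library totals are also shared by all genes of a library, so this exchange cannot show what the shared scaling adds to r. The first principal axis of the 4 genes held 98.4% of their variance within days over 38 libraries.

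**Figure D4:**
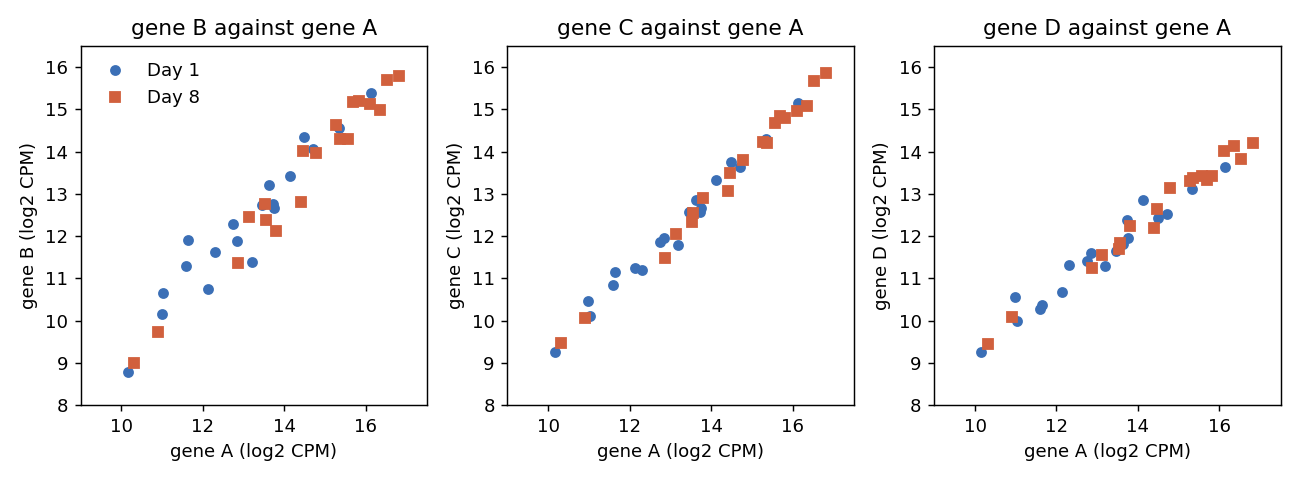
Log2 CPM of genes B, C and D (1 panel each) against that of gene A, with 19 Day 1 libraries as circles and 19 Day 8 libraries as squares. Points follow a narrow line in each panel, tightest for gene C (r = 0.991 at Day 1 and 0.996 at Day 8), and the line of gene D is less steep.

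Such likeness was uncommon among the other tested genes. At Day 1, 0.447% of them had r of at least 0.9 with gene A, 0.347% with gene B, 0.473% with gene C and 0.427% with gene D. At Day 8 these shares were 1.31%, 1.16%, 1.29% and 1.21%. The median r of all tested genes with gene A was -0.03 at Day 1 and -0.06 at Day 8. Among 14995 other genes, gene C had the highest r with gene A at both days. Gene D was at rank 3 and 2, and gene B at rank 10 and 4. Seen from gene D, gene B stood at rank 28 at Day 1 and 8 at Day 8.

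Other genes, abundant and rare, followed the same pattern. Likeness was measured as the mean Pearson r with the 4 genes over both days, 19 cats each. The most alike was ENSFCAG00000011597, with a mean r of 0.979 (0.959 to 0.990), at rank 7074 by reads. The next was ENSFCAG00000019013, with a mean r of 0.971 (0.953 to 0.986), at rank 435. The former had a mean share of 0.00185 ± 0.00150% at the first biopsy and of 0.00391 ± 0.00269% at the later one (SD, n = 19). The latter took 0.0225 ± 0.0166% and 0.0379 ± 0.0231%. The 10 most alike genes had mean r from 0.958 to 0.979 and ranks from 15 to 10654, and 3 of them were among the 100 most abundant. One of these is the gene at rank 15 described above, with a mean r of 0.960. The highest r of any gene with gene B at Day 8 was that of a gene outside the 4, at 0.987.

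The other very abundant genes did not follow gene A. Over the 6 other genes among the 10 with the most reads, r with gene A ranged from -0.56 to 0.11 over both days. None of 12 relations passed the permutation test after adjustment, with a smallest adjusted p of 0.170 by r and 0.114 by rho, and 1 had an unadjusted p under 0.05 by either measure. Within cats 1 to 12 these r ranged from -0.62 to 0.34 and within cats 13 to 20 from -0.62 to 0.49. Values in 1 library compete for a fixed total of reads, and the part of this in negative r was not tested.

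Ratios of reads between the 4 genes were steadier in some pairs than in others. Gene C had a median of 0.538 reads per read of gene A at Day 1, from 0.379 in cat 19 to 0.718 in cat 20. At Day 8 the median was 0.4999, from 0.385 in cat 19 to 0.559 in cat 1. The log2 ratio of C to A had an SD of 0.22 at Day 1 and 0.17 at Day 8. Over the 4950 pairs of the 100 most abundant genes the median SD was 1.11 and 1.38, and 16 pairs at Day 1 and 4 at Day 8 had a smaller SD than C to A.

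The ratio of gene B to gene A varied more. Its median was 0.608 at Day 1, from 0.285 in cat 19 to 1.20 in cat 20, and 0.494 at Day 8, from 0.310 in cat 13 to 0.727 in cat 10. The Day 1 library of cat 20 was the only 1 of 38 in which gene B had more reads than gene A. The SD of this log2 ratio was 0.48 at Day 1 and 0.37 at Day 8. Genes B and C were nearly even, with a median C to B ratio of 0.856 at Day 1 and 0.985 at Day 8. Gene C had the more reads of the pair in 6 and 9 of 19 cats.

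Gene D departed from a fixed ratio in a regular way. Its ratio to gene A had a median of 0.396 at Day 1, from 0.176 in cat 18 to 0.748 in cat 13. At Day 8 the median was 0.255, from 0.155 in cat 15 to 0.567 in cat 2. The ratio was lowest in the tumours with the most reads of the group. Set against the level of gene C, which is not part of the ratio but tracks gene A, the log2 ratio of D to A had r = -0.849 and rho = -0.812 at Day 1 and r = -0.924 and rho = -0.872 at Day 8 over 19 cats. Adjusted over 12 such relations, the permutation p was 3e-05 for r at both days, and 0.00016 and 6e-05 for rho. Gene D had a smaller SD of log2 CPM than genes A and C, and all of them were highly correlated. A negative r of this kind follows from those values, so these p-values are no separate evidence.

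The same held for gene D against genes B and C. The ratio of D to B against gene C had r = -0.710 at Day 1 and -0.834 at Day 8 (adjusted permutation p = 0.0012 and 4.8e-05), with rho = -0.651 and -0.746 (adjusted permutation p = 0.00604 and 0.000912). The ratio of D to C against gene B had r = -0.829 and -0.896 (adjusted permutation p = 3e-05 for both), with rho = -0.761 and -0.949 (adjusted permutation p = 0.00051 and 6e-05). Without the 2 farthest cats these 6 r were -0.847 to -0.573. Within cats 1 to 12 they were -0.945 to -0.676, with permutation p of at most 0.0214, and within cats 13 to 20 they were -0.915 to -0.734, with exact permutation p of at most 0.0493.

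The ratios among genes A, B and C showed no such relation that passed over 19 cats. Of 6 relations, r ranged from -0.164 to 0.347 and the smallest adjusted permutation p was 0.251, with rho from -0.153 to 0.268 and a smallest adjusted p of 0.457. No unadjusted p was under 0.05. The ratio of C to A against gene B at Day 8 had opposite signs in the sets, with r = -0.599 in cats 1 to 12 (permutation p = 0.0513) and r = 0.663 in cats 13 to 20 (exact permutation p = 0.0769). The ratio of B to A against gene C at Day 8 had r = 0.716 in cats 13 to 20 (exact permutation p = 0.0487) and r = 0.186 in cats 1 to 12 (permutation p = 0.576). The SDs of log2 CPM of genes A, B and C were close, so weak relations here largely follow from values given above. All relations of ratios with level were chosen after the values had been seen.

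**Figure D5:**
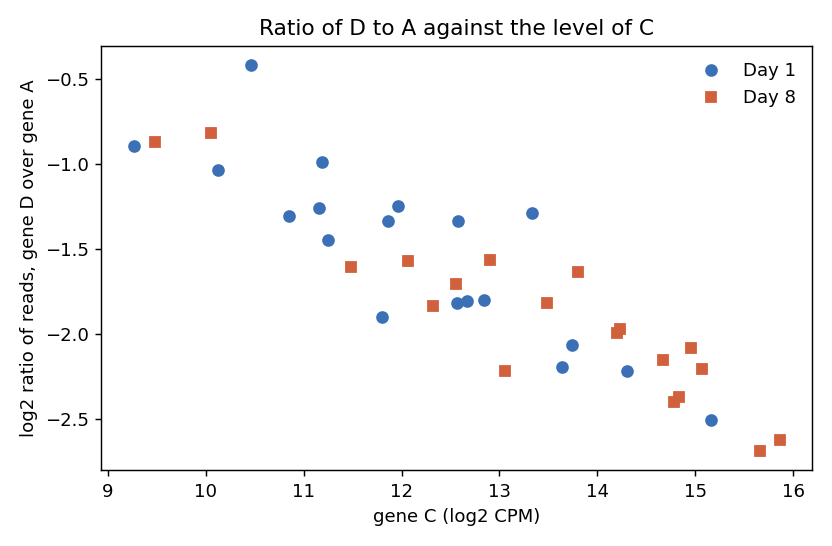
Log2 ratio of the reads of gene D to those of gene A in each library, against the log2 CPM of gene C, with Day 1 as circles and Day 8 as squares. The ratio falls as gene C rises at both days (r = -0.849 and -0.924, n = 19 each).

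Between days the make-up of the group shifted slightly, which is part of the contrast the genes were chosen on and is given without a test. Of the reads of the 4 genes together, gene A made up 39.9 ± 4.89% at Day 1 and 44.1 ± 3.45% at Day 8 (SD, n = 19). Gene B made up 24.4 ± 5.62% and 22.1 ± 4.55%, gene C 21.2 ± 1.48% and 21.5 ± 1.84%, and gene D 14.5 ± 4.54% and 12.4 ± 4.21%. The log2 ratio of D to A was lower at Day 8 in 15 of 19 cats, by a mean of -0.38 ± 0.43. The ratio of C to A changed by -0.13 ± 0.19 and that of D to B by -0.10 ± 0.37.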

How the data were processed

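Total RNA from 38 biopsies was sequenced. The values are read counts per gene, deposited by the authors without normalisation. Reads were processed with HISAT2 2.0.5 and featureCounts, per the submitters' processing notes. Build, annotation, strand setting and the handling of multiply assigned reads: not given in the sources used here. Reads shared with similar or overlapping genes cannot be separated.

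The members and comparisons were chosen with earlier results of these data known. Named genes were the 4 listed IDs and the 2 others most like them. Counts were filtered with filterByExpr (minimum 10), leaving 14996 genes with 99.8% of reads, 4 of the 4 among them. They were fitted with edgeR 4.0.16 (TMM, robust quasi-likelihood, cat as block, Benjamini-Hochberg at 0.05). DESeq2 1.42.0 and limma 3.58.1 were alternatives. Log2 CPM had a prior count of 2. Permutation tests were two-sided, with 100000 draws, or exact for sets under 10 cats and for differences between sets. The fit was tested on simulated data. Marker genes could not be used without symbols.

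The labels do not say that a number is a cat. Deviations from the day mean correlated above 0.1 in 19 of 19 same-numbered pairs (0.365 to 0.882, median 0.634). Between different numbers the median was -0.0519. The numbers were taken as pairs.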

Additional observations from a re-analysis of the deposited data

How the results depend on the processing

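The log2 changes of genes A to D kept their sign in all 31 other settings, most of which only left out 1 cat. They stayed within 1 SD of the paired differences, a wide margin, since these SDs were 1.18, 1.04, 1.09 and 0.87. The genes were chosen on this contrast, so these values are description. Without the replicate block the log2 changes were 1.41 ± 0.49, 1.16 ± 0.51, 1.34 ± 0.49 and 1.10 ± 0.37 (SE). With replicate block and batch they were 1.28, 1.11, 1.16 and 1.03. With 1 cat left out they ranged from 1.30 to 1.51, 1.06 to 1.26, 1.19 to 1.39 and 0.93 to 1.10, and the share difference from 4.11 to 4.80 points. The lowest changes in limma were 1.11, 0.88, 1.01 and 0.82. All 12 correlations between the 4 genes passed in all 9 other settings, of which those by column order and without cat 7 were chosen after seeing the data.

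The number of genes passing the test between days, used above as background only, was less stable. It was 1057 with the replicate block (767 higher, or 72.6%). It was 1814 with library totals, of which 31.7% were higher and where the median log2 change of all genes was -0.11, and 2143 in DESeq2 (60.0% higher). It was 0 without the block (1400 genes at an unadjusted p under 0.05), 0 with block and batch (2686) and 0 in cats 1 to 12 (2360). It was also 0 in cats 13 to 20 (1801) and 0 in cats 1 to 13 (2760). In cats 14 to 20 it was 29 (1775), with 2 higher and 27 lower at Day 8. Leaving out 1 cat gave 671 to 1166, the lowest being 671 (cat 20 left out), 674 (cat 11) and 683 (cat 5). The subsets hold fewer cats. Otherwise the cause was not tested. No library had fewer than 8797 counts of any of the 4 genes, and the number of cats limits the comparison of sets.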
